A study of Mus musculus with 18 samples.

Results

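Protein phosphatase 6 (PP6) is a serine/threonine phosphatase of the PP2A family, and the transcripts of its 7 subunit genes were followed in mouse liver. The members were taken by gene symbol and comprise the catalytic subunit gene Ppp6c, the SAPS regulatory subunit genes Ppp6r1, Ppp6r2 and Ppp6r3, and the ankyrin repeat subunit genes Ankrd28, Ankrd44 and Ankrd52. All 7 were found among the 25266 gene symbols of the tables, and all 7 were among the 11090 genes with a mean level of at least 0.5 RPKM that entered the tests. RPKM is the number of reads of a gene divided by its length and by the depth of the library. Levels of different genes can thus be set side by side, within the limits of the length used for each gene.

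The study removed Ppp6r3, which encodes SAPS3, from the liver and fed the mice a high fat diet. Liver RNA was sequenced from 18 male mice, namely 4 FF and 4 LKO mice on control diet (CD) and 5 FF and 5 LKO mice on high fat diet (HFD). FF mice carried floxed Ppp6r3 and no Cre, and LKO mice came from crosses of FF mice with C57BL/6 Alb-Cre mice, so every group carried the floxed allele. The albumin promoter of this Cre is a promoter of hepatocytes, and recombination by cell type was not measured here. CD held 10% and HFD 32.5% of its calories as fat, and the mice were fed for 16 weeks from 8 weeks of age. The label field for genotype names the HFD mice by genotype and diet together, and the descriptions use WT and KO for FF and LKO.

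A PP6 holoenzyme joins the catalytic subunit with a SAPS subunit and an ankyrin repeat subunit. The SAPS subunit binds the catalytic subunit and directs it to its substrates, and the ankyrin repeat subunit binds the SAPS subunit. PP6 is known to dephosphorylate the mitotic kinase Aurora A, and its SAPS3 form was studied here for its action on AMPK, the energy-sensing kinase of the cell. Levels of RNA do not show the amounts of the subunit proteins.

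The promoters of Ppp6r3 and Ppp6r2 are shown because Ppp6r3 was the targeted gene and Ppp6r2 was the member that differed most clearly with diet in FF mice. Each run holds the 250 bases before the RefSeq start of the gene in GRCm38.p6, read 5′ to 3′ on the strand of the gene, and capitals mark CCAAT and GGGCGG on either strand (ATTGG and CCGCCC on the opposite strand). The Ppp6r3 run is chr19:3575750-3575999 on the minus strand, and the Ppp6r2 run is chr15:89211309-89211558 on the plus strand.
Ppp6r3: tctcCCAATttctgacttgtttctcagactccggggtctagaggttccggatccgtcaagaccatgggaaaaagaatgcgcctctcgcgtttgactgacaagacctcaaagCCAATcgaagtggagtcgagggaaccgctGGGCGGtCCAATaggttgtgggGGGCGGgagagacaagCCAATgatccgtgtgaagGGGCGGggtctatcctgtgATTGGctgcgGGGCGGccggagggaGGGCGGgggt
Ppp6r2: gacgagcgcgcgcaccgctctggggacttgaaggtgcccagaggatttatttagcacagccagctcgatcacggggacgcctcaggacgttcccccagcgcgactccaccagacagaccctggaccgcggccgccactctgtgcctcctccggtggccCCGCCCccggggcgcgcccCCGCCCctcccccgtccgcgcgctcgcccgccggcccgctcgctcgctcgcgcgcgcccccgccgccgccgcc

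The Ppp6r3 window held 5 copies of CCAAT and 5 of GGGCGG. At least 1 CCAAT was present in 33.8% and at least 1 GGGCGG in 32.7% of 32851 promoter windows of the same length, and at least 5 copies were present in 0.213% and 1.93%. The Ppp6r2 window held 0 copies of CCAAT and 2 of GGGCGG. Its GC content was 76.8%, against 59.2% for Ppp6r3 and a median of 52.4% over all windows. For the other members, the counts of CCAAT and GGGCGG were 0 and 0 in Ppp6c, 1 and 2 in Ppp6r1, 0 and 3 in Ankrd28, 0 and 2 in Ankrd44, and 0 and 4 in Ankrd52. TATAAA was in the window of 0 of the 7 members and in 12.4% of all windows. These motifs were chosen after the sequences had been seen, overlap each other nowhere, and describe letters in the windows, with no measure of binding.

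The members lie on 7 chromosomes. In the GENCODE annotation of GRCm38, Ppp6r3 spans chr19:3454928-3575749 on the minus strand with 24 exons in its longest coding transcript, Ppp6r1 spans chr7:4631495-4659019 on the minus strand and Ppp6r2 spans chr15:89211553-89287010 on the plus strand, each also with 24 exons. Ppp6c spans chr2:39194354-39226451 on the minus strand with 7 exons. The ankyrin repeat genes have 28 exons each, with Ankrd28 at chr14:31698768-31830651 and Ankrd44 at chr1:54645340-54926387 on the minus strand and Ankrd52 at chr10:128377115-128408704 on the plus strand. Ankrd52 shares part of its span with Nabp2 and Slc39a5 on the opposite strand, and Ppp6r3 with the antisense genes Gm48696 and Gm48683. Nabp2 had a mean of 18.4 RPKM and Slc39a5 one of 0.289 RPKM. Whole spans and not exons were compared, and whether the authors counted reads by strand is not given in the sources used here. Whether any reads of these partners were counted for Ankrd52 or Ppp6r3 was therefore not tested.

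Between 23.4 and 37.0 M reads per mouse lay behind the tables, with a median of 25.7 M. The members rested on whole numbers of reads that could be recovered from the steps of the RPKM values. The number ranged from 1263 to 2444 reads per mouse for Ppp6r1, from 505 to 1621 for Ppp6r3, from 455 to 862 for Ppp6c and from 378 to 870 for Ppp6r2. It ranged from 380 to 1205 for Ankrd52 and from 296 to 571 for Ankrd28. Ankrd44 rested on 42 to 160 reads, and its values carry the largest counting error. Pearson's r across genes between mice of a group was 0.974 to 0.993, and no tables were identical.

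Ppp6r3, the targeted gene, was lower in every LKO mouse than in every FF mouse on the same diet. In FF CD mice 1 to 4 its level was 8.38, 8.82, 11.0 and 9.17 RPKM, and in LKO CD mice 1 to 4 it was 4.08, 3.88, 4.02 and 3.99 RPKM. In FF HFD mice 1 to 5 it was 8.82, 7.55, 8.11, 8.47 and 8.22 RPKM, and in LKO HFD mice 1 to 5 it was 4.22, 4.42, 4.87, 4.71 and 4.77 RPKM. The lowest FF mouse and the highest LKO mouse were thus apart on both diets, and the LKO CD mice lay close together. Means were 9.34 ± 1.14 (SD, n = 4) against 3.99 ± 0.0822 (SD, n = 4) RPKM on CD and 8.23 ± 0.467 (SD, n = 5) against 4.60 ± 0.271 (SD, n = 5) RPKM on HFD. Ppp6r3 fell in LKO mice by 1.04 on the log2(RPKM + 1) scale on CD (95% confidence interval -1.20 to -0.88, limma adjusted p = 6.72e-07) and by 0.72 on HFD (95% confidence interval -0.87 to -0.58, limma adjusted p = 7.14e-06). It was the only 1 of the 7 members past a fold change of 1.5 with an adjusted p under 0.05 between genotypes on either diet, where 0.225% of all tested genes were called on CD and 2.07% on HFD.

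In RPKM, which depends on the gene length used, the catalytic and SAPS1 transcripts were the most abundant of the complex in every group. Averaged over the 18 mice, the level was 15.5 RPKM for Ppp6r1, 13.1 for Ppp6c, 6.53 for Ppp6r3, 3.94 for Ppp6r2, 3.54 for Ankrd52, 2.90 for Ankrd28 and 0.568 for Ankrd44. Ppp6r1 stood at percentile 78.1 of the tested genes and Ppp6c at percentile 75.2, whereas Ankrd44 stood at percentile 2.11. In all 18 mice Ppp6r1 exceeded Ppp6c, although the values of the mice of a group overlapped between these genes in every group except FF HFD. Ppp6c was above Ppp6r3 in each mouse, with no overlap in any group. Below Ppp6r3 the order was less firm. In FF CD mice Ankrd52 overlapped with Ppp6r2 and Ppp6r2 with Ankrd28, and Ppp6r3 itself overlapped with Ppp6r2 in LKO HFD mice, where 3 of 5 mice had the higher value for Ppp6r3. Ankrd44 was the lowest member in every mouse.

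**Figure D1:**
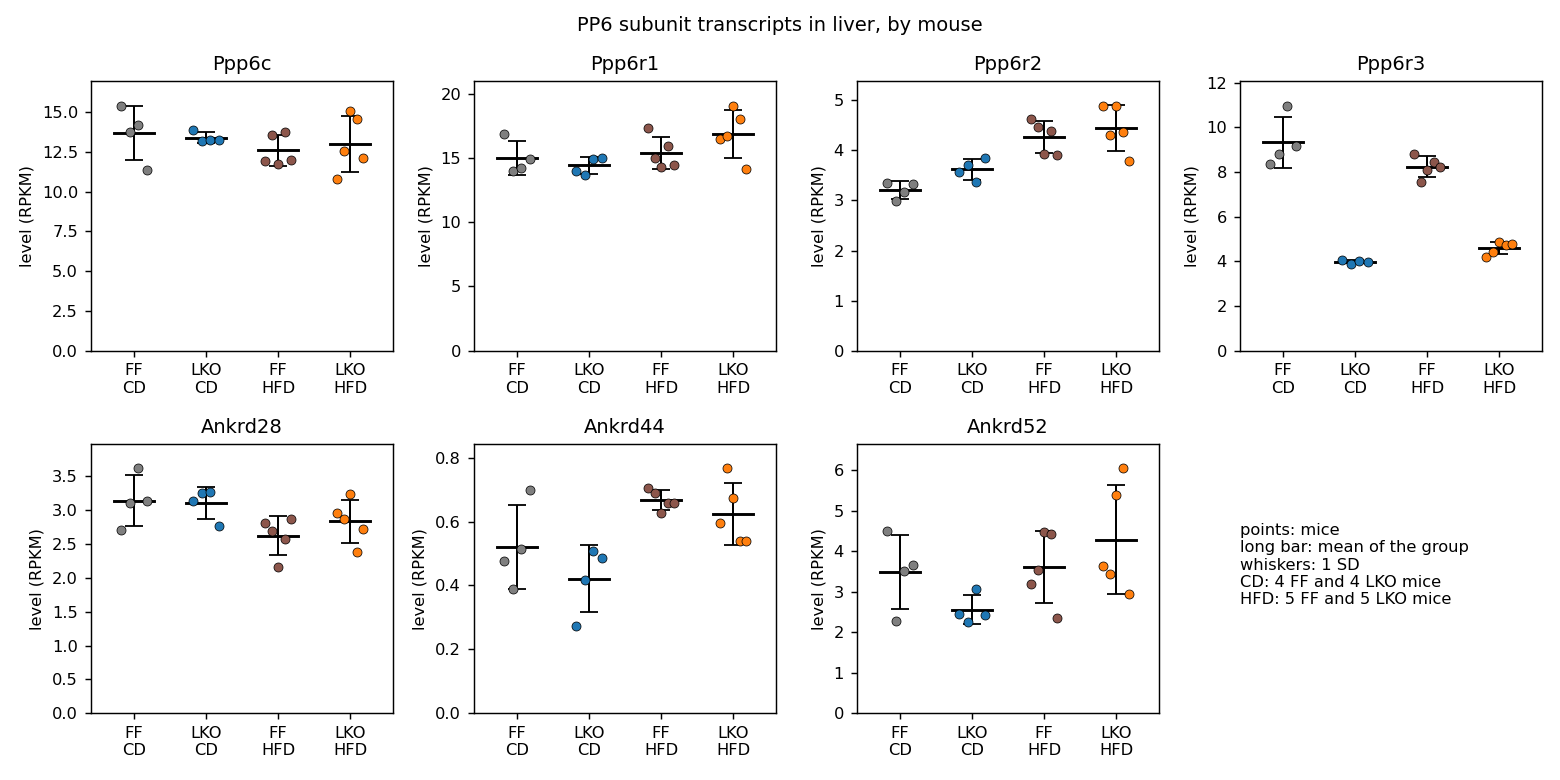
Level of each PP6 subunit transcript (RPKM, linear axis from 0) in each of the 18 mice by group, with the group mean as a long bar and 1 SD as whiskers (n = 4 per CD group, n = 5 per HFD group). Ppp6r3 separates FF from LKO mice on both diets, Ppp6r2 is higher on HFD than on CD in FF mice, and the groups overlap for Ppp6c.

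Reads of Ppp6r3 were not lost from LKO livers. Relative to the mean of the FF mice on the same diet, the LKO CD mice kept 41.6% to 43.7% of the Ppp6r3 level (mean 42.8%), and the LKO HFD mice kept 51.2% to 59.2% (mean 55.9%). The ranges did not overlap, but the percentages depend on both genotypes. Ppp6r3 in LKO mice was 1.15 times as high on HFD as on CD in mean RPKM, with no overlap (exact permutation test, two-sided, p = 0.0159), while the limma difference of 0.16 on the log2(RPKM + 1) scale did not pass the threshold (limma adjusted p = 0.190). In FF mice it was 0.882 times as high on HFD, with overlap (exact permutation test, two-sided, p = 0.0635, limma adjusted p = 0.135). The paper reports that HFD raised RNA of SAPS3, and not of SAPS1 or SAPS2, in WT mice. Whether its mice and assay match those used here is not stated. The interaction of diet and genotype, which tests whether the diet difference of LKO mice departs from that of FF mice, was 0.32 (95% confidence interval 0.11 to 0.54) with an unadjusted p of 0.00572 and a limma adjusted p of 0.106. Which exons were deleted is not stated in the tables, so reads of exons that remain after the deletion could not be set apart. RPKM per gene also cannot separate transcript of cells with the deletion from that of other cells. The paper tested SAPS3 protein in liver by Western blotting, and these values do not measure it.

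Markers of other liver cells were counted in the same diet comparisons. Of the 6 sinusoidal endothelial markers, 0 were called in LKO mice on HFD against CD and 4 in FF mice, and of the 7 Kupffer cell and macrophage markers 1 and 3 were called, all upward. Of all tested genes, 1.27% were called in LKO mice and 6.6% in FF mice. On the log2 scale, all 6 endothelial differences were upward in LKO mice (0.085 to 0.61, median 0.52). They were 0.40 to 1.38 in FF mice (median 0.89). The Kupffer cell differences were also all upward, with medians of 0.55 and 0.60. For the interaction, 0 of 6 and 0 of 7 were called (smallest limma adjusted p = 0.343 and 0.620). The share of all tested genes was 2.44%. In LKO mice the summed endothelial markers ranged from 10.9 to 31.7 RPKM on CD and from 28.3 to 39.5 RPKM on HFD, and the summed Kupffer cell markers from 46.5 to 72.9 and from 65.1 to 125 RPKM. In FF mice the endothelial sum ranged from 13.6 to 29.6 RPKM on CD and from 37.0 to 60.2 RPKM on HFD, and the Kupffer cell sum from 53.4 to 76.0 and from 63.3 to 126 RPKM. None of the markers in either list had a mean under 0.1 RPKM. In bulk liver a change in the number of cells of a type and a change in RNA per cell cannot be told apart, and the part of these cells in the Ppp6r3 level of LKO mice was not tested. The hepatocyte markers, among them Alb and Hnf4a, were present in every group, with summed levels of 33410 to 50654 RPKM. With HFD, 3 of 6 hepatocyte markers were called in FF mice, all downward (Apoa1, Cps1 and Serpina1c), and 0 of 6 in LKO mice, where Ttr had -0.40 on the log2 scale (limma adjusted p = 0.0284), under the fold change of 1.5. For the interaction 0 of the 6 were called, and Ttr had -0.51 (limma adjusted p = 0.0412), under that fold change. Between genotypes on HFD, 1 of the 6, Apoa1, was called, higher in LKO mice by 0.64 on the log2 scale (limma adjusted p = 0.0169). Of all tested genes, 2.07% were called in that comparison. Serpina1c was higher there by 0.58 (limma adjusted p = 0.0401), just under the fold change of 1.5. Of the 6 stellate cell and fibroblast markers, 1, Col1a1, rose with HFD in FF mice by 1.16 on the log2 scale (limma adjusted p = 0.00539), and between genotypes on HFD it differed by -1.15 (limma adjusted p = 0.0157). Col1a1 was also called for the interaction, at -1.51 (limma adjusted p = 0.0364). On CD, 0 of 6 of either list were called between genotypes, against 0.225% of all tested genes. For the remaining lists, 0 of the 2 tested lymphocyte and 0 of the 3 tested cholangiocyte markers were called in any comparison.

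The 3 nearest tested genes on each side of Ppp6r3 did not pass the thresholds between LKO and FF mice on either diet. Lrp5, a Wnt co-receptor gene that lies 9.08 kb upstream of Ppp6r3, differed by 0.013 on the log2(RPKM + 1) scale on CD and by 0.0022 on HFD. The neighbour on the other side is Cpt1a, which encodes the rate-limiting enzyme of mitochondrial fatty acid import and lies 69.2 kb away. It differed between genotypes by 0.22 on CD (limma adjusted p = 0.771) and by -0.15 on HFD (limma adjusted p = 0.505). Cpt1a rose with HFD in FF mice by 0.68 (limma adjusted p = 0.000908), as did 1810055G02Rik by 0.75 (limma adjusted p = 0.0140). Mrpl21, Ighmbp2 and Kmt5b were called in no comparison.

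Neither of the other SAPS genes was called between genotypes. Ppp6r1, which encodes SAPS1, had 16.8, 14.0, 14.2 and 14.9 RPKM in FF CD mice 1 to 4 and 14.0, 13.7, 14.9 and 15.0 RPKM in LKO CD mice 1 to 4. On HFD it had 17.3, 15.0, 14.3, 15.9 and 14.4 RPKM in FF mice 1 to 5 and 16.5, 16.7, 19.1, 18.05 and 14.1 RPKM in LKO mice 1 to 5. The genotypes overlapped on both diets. The difference between LKO and FF mice was -0.051 on the log2(RPKM + 1) scale on CD (95% confidence interval -0.24 to 0.14, limma adjusted p = 0.960) and 0.12 on HFD (95% confidence interval -0.048 to 0.30). In LKO mice Ppp6r1 was 1.17 times as high on HFD as on CD in mean RPKM, with 1 of the HFD mice, mouse 5, within the CD range (limma adjusted p = 0.163). In FF mice it was 1.03 times as high, a difference of 0.035 on the log2(RPKM + 1) scale that turned to -0.045 under quantile normalization.

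Ppp6r2, which encodes SAPS2, was the least abundant SAPS transcript by mean in every group and was higher on HFD in FF mice. Its level was 3.35, 2.98, 3.17 and 3.33 RPKM in FF CD mice 1 to 4 and 4.62, 4.46, 3.94, 4.38 and 3.91 RPKM in FF HFD mice 1 to 5, so that each HFD mouse exceeded each CD mouse. In LKO mice it was 3.57, 3.71, 3.36 and 3.84 RPKM on CD and 4.89, 4.31, 4.89, 4.37 and 3.79 RPKM on HFD, where HFD mouse 5 fell below the highest CD mouse. The mean RPKM on HFD was 1.33 times that on CD in FF mice (exact permutation test, two-sided, p = 0.0159) and 1.23 times in LKO mice (exact permutation test, two-sided, p = 0.0317). On the log2(RPKM + 1) scale the diet difference was 0.32 in FF mice (95% confidence interval 0.17 to 0.47, limma adjusted p = 0.00450) and 0.24 in LKO mice (95% confidence interval 0.083 to 0.39, limma adjusted p = 0.0700). The first passed the adjusted p alone and not the fold change of 1.5, a mark that 20.6% of all tested genes reached in this comparison. The difference between the genotypes in this response was -0.086 (limma adjusted p = 0.721).

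On CD each LKO mouse also had more Ppp6r2 than each FF mouse, with means of 3.62 ± 0.206 (SD, n = 4) and 3.21 ± 0.173 (SD, n = 4) RPKM. The lowest LKO mouse, at 3.359 RPKM, and the highest FF mouse, at 3.353 RPKM, nearly met. They lay closer than the 0.00764 RPKM that 1 read makes at the median depth. The exact permutation test gave p = 0.0286 (two-sided), the smallest value possible with 4 mice against 4, and the limma difference of 0.13 did not pass (95% confidence interval -0.025 to 0.29, limma adjusted p = 0.751). On HFD the genotypes overlapped, with a difference of 0.049. Ppp6r2 and Ppp6r3 were the 2 of 7 members whose FF and LKO mice did not overlap on CD, where 5.07% of all tested genes did not overlap. On HFD Ppp6r3 was the only 1, against 4.67% of all tested genes.

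Setting the SAPS transcripts against each other showed a different composition in LKO liver. On CD, Ppp6r3 made up 33.9% ± 3.84 (SD, n = 4) of the summed SAPS RPKM of FF mice and 18.1% ± 0.565 (SD, n = 4) of that of LKO mice. On HFD its share was 29.6% ± 1.30 (SD, n = 5) with FF and 17.8% ± 1.82 (SD, n = 5) with LKO. Ppp6r1 made up 54.4% and 65.4% on CD and 55.1% and 65.0% on HFD. The share of Ppp6r2 was 11.7% in FF CD, 16.5% in LKO CD, 15.3% in FF HFD and 17.2% in LKO HFD mice. Shares of a sum move against each other, so a higher share of Ppp6r1 in LKO mice goes with the lower level of Ppp6r3 and not with a level of Ppp6r1 that passed a test.

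The summed SAPS level was set beside Ppp6r3 on each diet. In FF CD mice 1 to 4 it was 28.6, 25.8, 28.4 and 27.4 RPKM, and in LKO CD mice 1 to 4 it was 21.7, 21.3, 22.3 and 22.8 RPKM, with no overlap. In FF HFD mice 1 to 5 it was 30.7, 27.0, 26.3, 28.8 and 26.6 RPKM, and in LKO HFD mice 1 to 5 it was 25.6, 25.5, 28.8, 27.1 and 22.7 RPKM, with overlap. On CD the mean of Ppp6r3 was lower by 5.34 RPKM in LKO mice, that of Ppp6r1 and Ppp6r2 together was lower by 0.171 RPKM, and that of the sum was lower by 5.52 RPKM.

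On HFD Ppp6r3 was lower by 3.64 RPKM, Ppp6r1 and Ppp6r2 together were higher by 1.69 RPKM, and the sum was lower by 1.94 RPKM. The difference of the sum on HFD was -3.06 RPKM with the same sum of all genes in each mouse, -1.23 RPKM without FF HFD mouse 1 and -1.13 RPKM without LKO HFD mouse 5. Summed Ppp6r1 and Ppp6r2 was 19.6 ± 1.53 (SD, n = 5) RPKM in FF HFD mice and 21.3 ± 2.23 (SD, n = 5) RPKM in LKO HFD mice, which overlapped. These sums and shares are given without a test, and the diets were not compared in this respect.

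**Figure D2:**
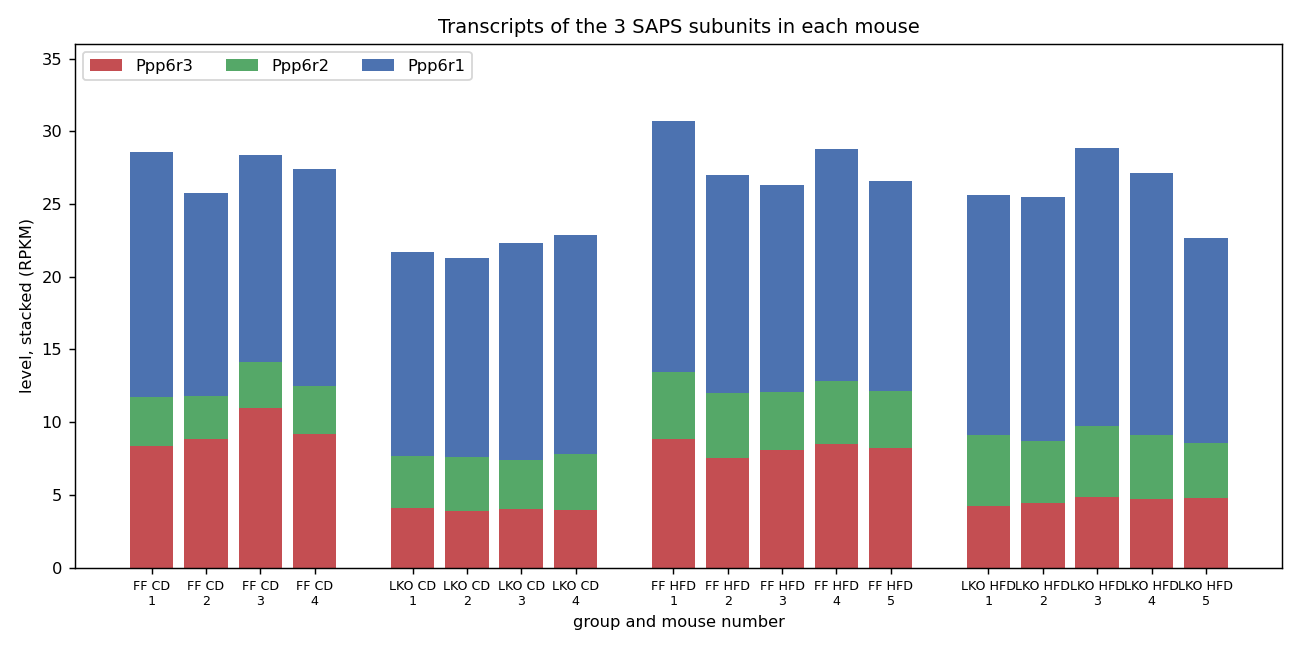
Stacked levels (RPKM, axis from 0) of Ppp6r3, Ppp6r2 and Ppp6r1 in each mouse, 1 bar per mouse, grouped by genotype and diet. The bars of LKO CD mice reach 21.3 to 22.8 RPKM and those of FF CD mice 25.8 to 28.6 RPKM, whereas the HFD bars of the genotypes overlap.

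Ppp6c, the catalytic subunit shared by all PP6 forms, was called in no comparison. Its level was 15.4, 13.7, 14.2 and 11.4 RPKM in FF CD mice 1 to 4 and 13.9, 13.2, 13.2 and 13.2 RPKM in LKO CD mice 1 to 4. On HFD it was 11.9, 13.6, 11.7, 13.7 and 12.0 RPKM in FF mice 1 to 5 and 10.8, 12.5, 15.0, 14.5 and 12.1 RPKM in LKO mice 1 to 5. All groups overlapped. The difference between LKO and FF mice was -0.022 on the log2(RPKM + 1) scale on CD (95% confidence interval -0.23 to 0.19) and 0.036 on HFD (95% confidence interval -0.15 to 0.23, turning to -0.017 with the same sum in each mouse), so a difference of up to about these bounds in either direction remains possible. With HFD it differed by -0.11 in FF mice (limma adjusted p = 0.476) and by -0.047 in LKO mice (limma adjusted p = 0.813). The spread within groups made up 89.8% of the variation of Ppp6c over the 18 mice, compared with 3.17% for Ppp6r3 and 23.2% for Ppp6r2.

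Per unit of Ppp6c, the summed SAPS RPKM on CD was 2.04 ± 0.256 (SD, n = 4) for FF and 1.65 ± 0.0745 (SD, n = 4) for LKO, without overlap. On HFD it was 2.22 ± 0.220 (SD, n = 5) for FF and 2.01 ± 0.212 (SD, n = 5) for LKO, with overlap. The summed ankyrin repeat subunits per unit of Ppp6c were 0.529 ± 0.0982 (SD, n = 4) and 0.455 ± 0.0429 (SD, n = 4) in FF and LKO mice on CD, and 0.548 ± 0.0501 (SD, n = 5) and 0.595 ± 0.0586 (SD, n = 5) on HFD. SAPS transcripts outnumbered the catalytic transcript per length in each mouse, and the ankyrin repeat transcripts did not. Such comparisons between genes depend on the gene length behind each RPKM value. The length recovered from the values was 1697 bases for Ppp6c and 5092 for Ppp6r2, against 4115 and 3297 in their longest coding transcripts.

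Of the ankyrin repeat subunits, which bind the SAPS subunits, 0 of 3 were called in any comparison. Ankrd28 ranged from 2.70 to 3.61 RPKM in FF CD, from 2.76 to 3.26 in LKO CD, from 2.16 to 2.87 in FF HFD and from 2.38 to 3.23 in LKO HFD mice. Its difference between HFD and CD was -0.19 on the log2(RPKM + 1) scale in FF mice (limma adjusted p = 0.110) and -0.10 in LKO mice (limma adjusted p = 0.499). Between genotypes it differed by -0.0088 on CD (0.0024 with the same sum in each mouse) and by 0.081 on HFD.

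Ankrd52 varied widely between mice of a group. Its level was 4.50, 2.29, 3.51 and 3.66 RPKM in FF CD mice 1 to 4 and 2.46, 2.26, 3.08 and 2.43 RPKM in LKO CD mice 1 to 4. On HFD it was 3.20, 3.53, 4.48, 4.43 and 2.37 RPKM in FF mice 1 to 5 and 3.63, 3.43, 5.39, 6.05 and 2.95 RPKM in LKO mice 1 to 5. LKO HFD mice 3 and 4 were the highest of all 18. The mean in LKO mice was 1.68 times as high on HFD as on CD, with LKO HFD mouse 5 within the CD range (exact permutation test, two-sided, p = 0.0317). On the log2(RPKM + 1) scale this was 0.54 (95% confidence interval 0.16 to 0.92, limma adjusted p = 0.0914), against 0.037 in FF mice (-0.063 under quantile normalization), and the interaction was 0.50 (95% confidence interval -0.029 to 1.04, limma adjusted p = 0.333).

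Ankrd44 was the scarcest member, with 0.477, 0.390, 0.515 and 0.700 RPKM in FF CD mice 1 to 4 and 0.275, 0.416, 0.508 and 0.485 RPKM in LKO CD mice 1 to 4. On HFD it had 0.705, 0.688, 0.627, 0.657 and 0.659 RPKM in FF mice 1 to 5 and 0.597, 0.767, 0.675, 0.540 and 0.539 RPKM in LKO mice 1 to 5. Every LKO HFD mouse exceeded every LKO CD mouse, and in FF mice only CD mouse 4 reached the HFD range. Mean RPKM on HFD was 1.48 times that on CD in LKO mice (exact permutation test, two-sided, p = 0.0159) and 1.28 times in FF mice (exact permutation test, two-sided, p = 0.0794). On the log2(RPKM + 1) scale, which compresses low levels, the differences were 0.19 (limma adjusted p = 0.109) and 0.14 (limma adjusted p = 0.168), the latter turning to -0.0038 under quantile normalization. The endothelial marker sum given above overlapped between diets in LKO mice and not in FF mice, the Kupffer cell sum overlapped in both, and their part in the level of Ankrd44 was not tested.

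**Figure D3:**
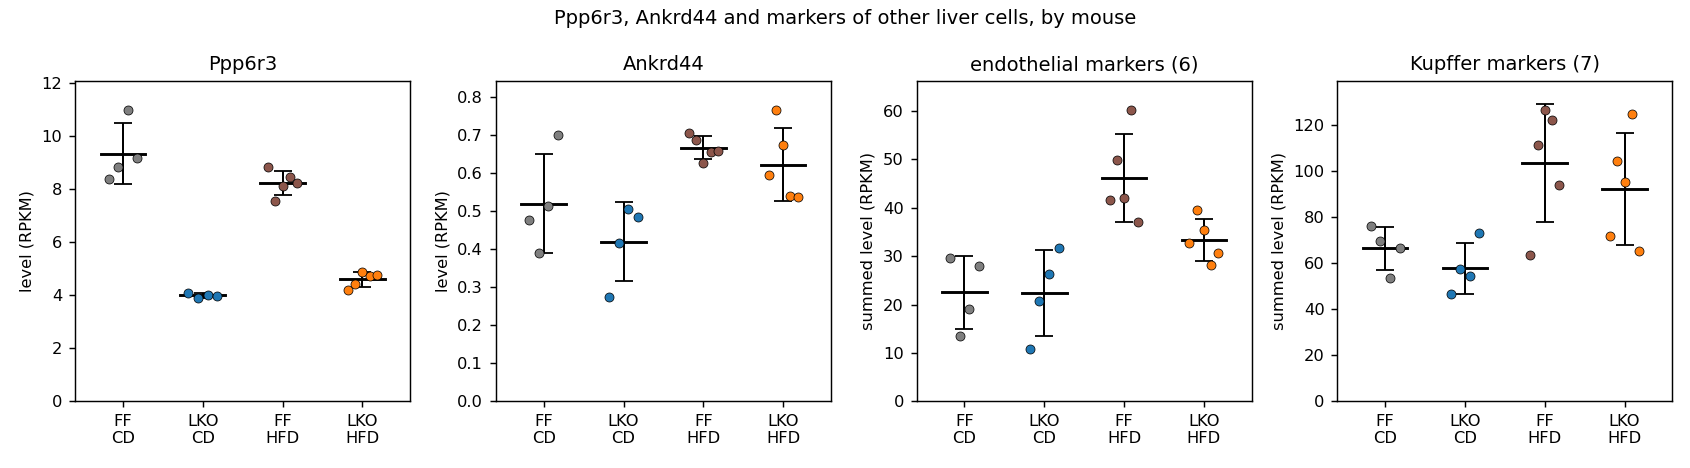
Levels (RPKM, axes from 0) of Ppp6r3 and Ankrd44 and summed levels of 6 sinusoidal endothelial and 7 Kupffer cell and macrophage markers in each mouse by group, with means and 1 SD (n = 4 per CD group, n = 5 per HFD group). Ankrd44 of LKO mice and the endothelial sum of FF mice do not overlap between diets, the other Ankrd44 levels and marker sums do, and the Ppp6r3 level of LKO mice is below that of FF mice on both diets.

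Across the diet comparisons, 0 of 7 members were called in FF mice, where 6.6% of all tested genes were called, and 0 of 7 in LKO mice, where 1.27% were called. An unadjusted limma p under 0.05 was reached by 3 of 7 members in FF mice (Ppp6r2, Ppp6r3 and Ankrd28), against 33.7% of all tested genes, and by 5 of 7 in LKO mice (Ppp6r1, Ppp6r2, Ppp6r3, Ankrd44 and Ankrd52), against 22.3%. Of these, only Ppp6r2 in FF mice had a limma adjusted p under 0.05 in the fit of the deposited values. When the mice were centred on the median, Ppp6r3 (-0.25, limma adjusted p = 0.0343) and Ankrd28 (-0.28, limma adjusted p = 0.0167) in FF mice also had one. Under quantile normalization Ankrd28 in FF mice had -0.29 (limma adjusted p = 0.0127) and Ppp6r3 -0.24 (limma adjusted p = 0.0503). Ppp6r2 was the only 1 of 7 members without overlap between diets in FF mice, against 18.3% of all tested genes, and Ppp6r3 and Ankrd44 were the 2 of 7 in LKO mice, against 9.04%. The median difference of the members was 0.035 in FF mice and 0.19 in LKO mice, beside 0.071 and 0.067 over all tested genes. For the interaction 0 of 7 members were called, against 2.44% of all tested genes, and Ppp6r3 was the 1 of 7 with an unadjusted limma p under 0.05, against 16.5%. The FF HFD and LKO HFD mice enter more than 1 of these comparisons, as do the CD mice.

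**Figure D4:**
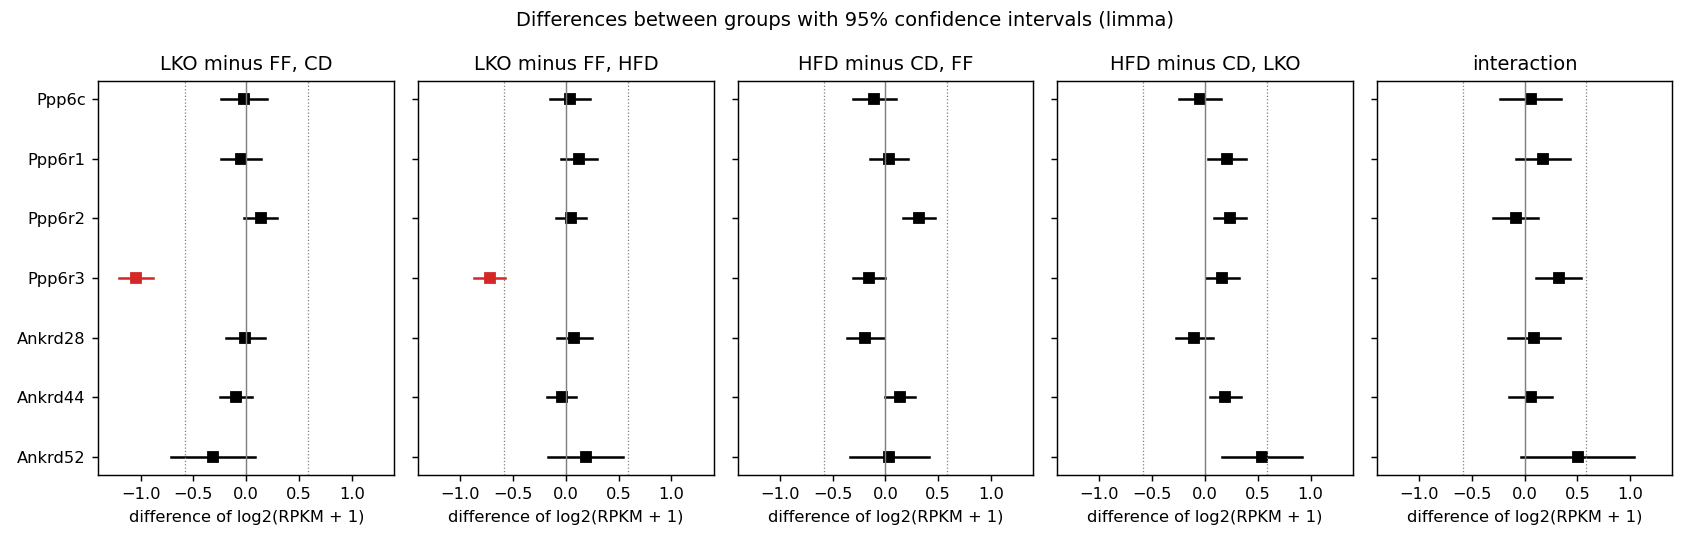
Difference between groups in log2(RPKM + 1) for each member (squares) with its 95% confidence interval from limma (lines), 1 panel per comparison; red marks a call and dotted lines mark a fold change of 1.5. Ppp6r3 is the only member in red, in both genotype comparisons, and the intervals of Ankrd52 are the widest.

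Levels of several members varied together between mice. Over the 18 mice, Pearson's r of log2(RPKM + 1) was 0.73 between Ppp6r1 and Ankrd52 and 0.66 between Ppp6r1 and Ppp6r2, and 0.63 and 0.70 for the deviations of each mouse from its group mean. Ppp6r3 and Ppp6r1 had an r of 0.0084 for the deviations, and Ppp6r3 and Ppp6r2 one of -0.10. The most negative pair was Ankrd28 and Ankrd52, with -0.42 and -0.36 for the deviations. Values of a mouse share its library and depth, and these r are descriptions over 21 pairs.

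**Figure D5:**
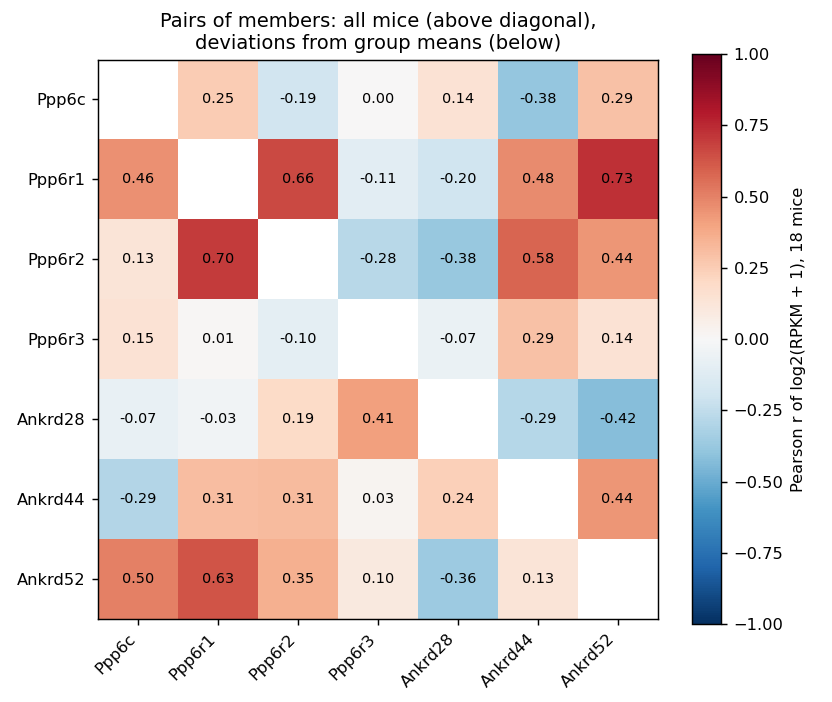
Pearson's r of log2(RPKM + 1) between each pair of members over the 18 mice (above the diagonal) and of the deviations from the group means (below it), coloured from -1 (blue) to 1 (red). Ppp6r1 is most alike with Ankrd52 and Ppp6r2, and the highest r of Ppp6r3 with another member is 0.41.

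Among the 11090 tested genes, the 3 with the highest Pearson's r to each member over the 18 mice were named. As the highest of so many, these genes have a high r in part by selection, and no test was made of them. For Ppp6r3 they were Dusp1 (r = 0.84), Bmyc (r = 0.79) and Ces2c (r = 0.77), and in the deviations from the group means their r were 0.60, 0.014 and -0.15. The last 2 therefore followed the group means and not the mice within groups. Ppp6r2 was most like Bckdk, the kinase of branched-chain ketoacid dehydrogenase (r = 0.96, deviations 0.86), Rab12 (r = 0.96, deviations 0.82) and Akap1 (r = 0.93, deviations 0.69). For Ppp6r1 the genes were Nacc2 (r = 0.94), Zcchc24 (r = 0.91) and Sbf1 (r = 0.89), and for Ppp6c they were Kpna1 (r = 0.90), St7l (r = 0.90) and Them4 (r = 0.88).

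Ankrd52 was most like Srcap (r = 0.94), Lrp1 (r = 0.94) and Zswim8 (r = 0.94), and Ankrd28 most like Zfp950 (r = 0.83), Mblac2 (r = 0.78) and Ccnl2 (r = 0.78). Ankrd44 was most like Rasgrp3 (r = 0.88), Rab3il1 (r = 0.87) and Erg (r = 0.86), of which Erg is a transcription factor of endothelial cells. The deviations of these genes from their group means followed those of Ankrd44 with r of 0.85, 0.81 and 0.76.

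The relatives of PP6 were examined as the PP2A and PP4 subunit genes, of which 25 of 27 were tested. Of these 25, 0 were called between genotypes on CD and 0 on HFD, where 0.225% and 2.07% of all tested genes were called. The medians were 0.097 and -0.0022 beside 0.035 and 0.030 over all tested genes. In FF mice 2 of 25 were called with HFD, both upward, against 6.6% of all tested genes, and 0 of 25 in LKO mice, against 1.27%. Ppp2r2d, a regulatory B subunit gene of PP2A, rose by 0.89 (limma adjusted p = 0.000124), and Ppp2r1b, a scaffold subunit gene of PP2A, rose by 0.70 (limma adjusted p = 0.000168). Their differences with HFD in LKO mice were 0.23 and 0.23 (limma adjusted p = 0.292 and 0.1999), and the interaction did not pass for any of the 25 (smallest limma adjusted p = 0.0518). Between LKO and FF mice on HFD, the largest differences were 0.23 for Ppp4c, the catalytic subunit gene of PP4, -0.20 for Ppp2r1b and 0.18 for Ppp4r3a, a regulatory subunit gene of PP4.

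Genes of known partners and substrates of PP6 were followed in the same way, and 7 of 10 were tested. The other 3, Tpx2, Prkdc and Ncapg, were under the filter. In no comparison was any of the 7 called (0 of 7), where 0.225% to 6.6% of all tested genes were called. Nfkbie, which encodes an inhibitor of NF-κB, was higher on HFD by 0.28 in FF mice (limma adjusted p = 0.00570) and by 0.32 in LKO mice (limma adjusted p = 0.0208), both under the fold change of 1.5. Aurka, which encodes Aurora A, differed with HFD by 0.28 in FF mice (limma adjusted p = 0.0279) and by 0.30 in LKO mice (limma adjusted p = 0.0579), also under that fold change. Between LKO and FF mice on HFD, Mob1a differed by 0.23 (limma adjusted p = 0.483), Aurka by -0.11 (limma adjusted p = 0.455), Map2k2 by -0.032 and Map2k1 by 0.029.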

How the data were processed

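The authors prepared libraries from Trizol-extracted total liver RNA, and per the labels the protocol names both a small RNA kit and standard RNA-seq. The submitters' notes name HISAT2 2.0.4, Partek and mm10. The authors deposited RPKM values per gene and mouse, which were used as deposited. Strand, the annotation and the treatment of multiply mapped reads are not given in the sources used here. Library depth and gene length were recovered from the steps of low RPKM values, giving whole reads for 9091 of 11090 tested genes (82.0%). Intervals on such reads would cover counting error only.

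Genes with a mean of at least 0.5 RPKM were fitted with limma 3.58.1 (R 4.3.3; trend, two-sided, Benjamini-Hochberg) on log2(RPKM + 1) in 1 fit of the 4 groups. Folds from it understate changes of low genes. A call needed a fold change above 1.5 and an adjusted p under 0.05. Single members were also compared by exact permutation of the mice (scipy 1.17.1), whose smallest p is 0.0286 for 4 against 4 mice, 0.0159 for 4 against 5 and 0.00794 for 5 against 5. Planned tests of sums and shares over the members are not given, since the members were chosen together. The fit was tested on simulated data.

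Named are the members, the 3 genes with the largest difference between LKO HFD and FF HFD mice and a mean of at least 1 RPKM per list, list genes that were called, Aurka and Nfkbie (chosen after their values were seen), the neighbours of Ppp6r3 and the 3 genes most alike to each member. The members and lists were chosen with earlier results of these data known. The alternatives were other pseudocounts, filters, scalings and models, the replicate number as a block, limma voom on the recovered reads and leaving out each mouse. A ratio of mean RPKM was added after seeing the data. Promoters came from RefSeq (GRCm38.p6, all 7 members matched) and positions from GENCODE. Amino acid sequences are not reported here.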

Additional observations from a re-analysis of the deposited data

Results flagged for a closer look

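In 44 groups of values (the 7 members, the SAPS sum and the SAPS shares in each of the 4 groups), 4 values lay far from the others of their group, and chance gives about 1 in 20 such groups. The Ppp6c level of LKO CD mouse 1, at 13.9 RPKM, lay above the other LKO CD mice, which were all at 13.2 RPKM. The share of Ppp6r2 among the SAPS transcripts was 16.5% in FF HFD mouse 2 and 19.1% in LKO HFD mouse 1, each the highest of its group. The share of Ppp6r3 was 21.0% in LKO HFD mouse 5, above 16.5% to 17.4% in the other LKO HFD mice. This mouse also had the lowest Ppp6r1 level of its group, at 14.1 RPKM.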

How the results depend on the processing

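The fall of Ppp6r3 in LKO mice kept its direction and passed the thresholds under all alternatives tested, between -1.22 and -1.03 on CD and between -0.84 and -0.72 on HFD over settings other than leaving out mice, and between -1.09 and -0.97 and between -0.75 and -0.70 with a mouse left out. The ratio of mean RPKM, which has no test, gave -1.23 and -0.84. The number of members called differed from the values above in 2 settings. By the adjusted p alone 1 member was called with HFD in FF mice (Ppp6r2), and with the replicate number as a block 1 member was called with HFD in LKO mice, Ankrd52 at 0.64 (limma adjusted p = 0.0172). Over the other settings its limma adjusted p was between 0.0560 and 0.234, and the cause was not tested. Same-numbered mice of different groups deviated together weakly at most, as the 25 pairs had r of -0.173 to 0.332 with 10 over 0.1. Their median r was 0.054, against -0.012 for mice with different numbers. Under their own number, 5 of 18 mice had their best match in another group, and the numbers were not taken as pairs. The block changed no other call of the members.

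The limma adjusted p of Ppp6r2 with HFD in FF mice was between 0.000519 and 0.0178 over all settings. In LKO mice it was below 0.05, with the fold change under 1.5, on rescaling each mouse to the same sum (0.0431), with the block (0.0349) and without LKO HFD mouse 5 (0.0369). Several small differences turned sign, all without a call. With the same sum in each mouse, Ankrd28 between genotypes on CD became 0.0024, Ppp6c between genotypes on HFD -0.017 and the interaction of Ppp6c -0.010. Centring on the median turned Ppp6c between genotypes on HFD to -0.0013, and Ppp6r1 and Ankrd52 with HFD in FF mice to -0.056 and -0.054. Quantile normalization turned Ppp6r1, Ankrd44 and Ankrd52 with HFD in FF mice to -0.045, -0.0038 and -0.063. With a mouse left out, the ranges that included 0 were, between genotypes on CD, -0.10 to 0.034 for Ppp6c, -0.081 to 0.0027 for Ppp6r1 and -0.061 to 0.045 for Ankrd28. They were -0.015 to 0.096 for Ppp6c between genotypes on HFD, -0.0054 to 0.089 for Ppp6r1 and -0.10 to 0.14 for Ankrd52 with HFD in FF mice, and -0.099 to 0.012 for Ppp6c with HFD in LKO mice.

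The differences of sums and shares between genotypes moved by less than 1 SD in every setting. Rescaling to the same sum moved the diet difference of the SAPS sum in FF mice from 0.345 to 2.002 RPKM, and with a mouse left out it was -0.368 (without FF HFD mouse 1) to 0.737 RPKM (without FF HFD mouse 3). The difference of the SAPS sum on HFD went from -1.94 to -1.23 RPKM without FF HFD mouse 1, to -1.13 RPKM without LKO HFD mouse 5 and to -3.06 RPKM with the same sum in each mouse, and that of the sum per Ppp6c went from -0.21 to -0.12 without FF HFD mouse 1. Counts over all tested genes depended more on the setting. Between genotypes on CD, 25 genes were called, 12 without the filter, 6 without moderation of the variance and 11 to 45 with a mouse left out. On HFD there were 230, 152 without the filter, 145 without moderation, 466 by the adjusted p alone and 132 to 318 with a mouse left out. With HFD in FF mice there were 732, 1254 with a pseudocount of 0.1, 1285 with limma voom and 2287 by the adjusted p alone. In LKO mice there were 141, against 272 with a pseudocount of 0.1, 283 with limma voom, 449 by the adjusted p alone, 87 with quantile normalization, 88 with centring, 53 without moderation, 47 without the filter, 40 with only the groups compared and 17 to 237 with a mouse left out. The interaction gave 271, 411 with the same sum in each mouse, 169 without the filter, 167 without moderation and 156 to 392 with a mouse left out. Of the members, Ankrd44 was most limited by depth and by the pseudocount, with 0.59 in place of 0.19 for HFD in LKO mice by limma voom on the reads (limma adjusted p = 0.0753).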
